A study of Mus musculus with 18 samples.

Results

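The 9 genes described here encode neuropeptide precursors and granins that are carried in dense-core vesicles: Penk, Pdyn, Cck, Scg2, Chga, Chgb, Vgf, Scg3 and Scg5. They were taken by symbol from the 55291 gene symbols measured, and they were selected on measured values. Penk and Scg2 were among the largest rises in the immunoprecipitated RNA of the KA group. That contrast is therefore described for the 9 genes, and no test of it is reported. The libraries came from the right hippocampus of male C57BL/6J mice that had received AAVDJ-GfaABC1D-EGFP-Rpl10a in the right CA3 at 6 weeks of age. This virus puts an EGFP-tagged ribosomal protein under the GfaABC1D astrocyte promoter, and all 3 groups carried it. Mice of the KA group were injected with 50 nL of 20 mM kainic acid (KA), a glutamate receptor agonist that induces status epilepticus, into the right dentate gyrus 2 weeks after the AAV, and RNA was taken 14 days later. PBS mice received PBS after the AAV. AAV control RNA was taken 2 weeks after the AAV, so that group differed from the KA group in time and surgery as well as in KA. Each group held 3 samples, each a pool of 3 to 4 mice, and each homogenate gave 2 libraries: an IP library of RNA bound to EGFP-tagged ribosomes and an input library of the whole homogenate, 18 libraries in all. Sequencing run 1 held samples #1 and #2 of KA and AAV control, run 2 their samples #3, and run 3 all of PBS, so run and group cannot be told apart for PBS.

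Neuropeptides are made as large precursors that are cut by convertases inside dense-core vesicles and released when a neuron fires strongly. Penk encodes the precursor of the enkephalins and Pdyn that of the dynorphins, both opioid peptides; Cck encodes cholecystokinin, abundant in hippocampal interneurons. Granins are acidic proteins that help to form the vesicle: chromogranin A (Chga), chromogranin B (Chgb), secretogranin II (Scg2), secretogranin III (Scg3) and the convertase chaperone 7B2 (Scg5), with Vgf, a neurotrophin-inducible relative, counted among them. Granule cells of the dentate gyrus and their mossy fibres are the hippocampal site best known for opioid peptides, and Scg2, Vgf and Penk are textbook activity-regulated genes.

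Library totals ranged from 7991681 to 16032180 counts, and all 9 genes exceeded 1 FPKM (counts scaled to gene length and library total) in all 18 libraries. The labels were checked against marker genes. The summed FPKM of 6 astrocyte markers was 2124 to 4968 in the IP libraries and 252 to 773 in input, whereas that of 6 neuron markers was 107 to 294 in IP and 618 to 926 in input. No neuron marker was at 0 in the IP libraries, so neuronal RNA was measurable in every one of them.

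The genes lie on 6 chromosomes of GRCm38. Penk is at chr4:4133531-4138819 on the minus strand, where 233 of its 1634 exon bases are shared with A830012C17Rik on the opposite strand. That gene had at most 4 counts in any library, though reads of the shared bases cannot be told apart if strand was not used. Scg2 is at chr1:79434669-79440120 and Pdyn at chr2:129686565-129699844, both on the minus strand. Scg3 overlaps Gm37871 on the opposite strand without sharing an exon base.

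Promoter sequence (250 bases before to 50 after the annotated start, RefSeq, GRCm38.p6) was at hand for 7 of the 9 genes and not for Penk and Vgf. It was searched on both strands for TGACGTCA, the cAMP response element (CRE), for TGACG, the core that the full element holds, for TGANTCA, the AP-1 motif, and for TATAAA. A full CRE was in 2 of the 7 genes, Scg2 and Chgb, against 1.79% of 32851 promoters, and the core was in 6 of 7, against 20.8%. The AP-1 motif was in none of the 7 genes and in 7.81% of all promoters, and TATAAA was in the Chga window, 6 bases after the start, and in 13.6% of all. Neither of the 2 Pdyn entries held any of these motifs. The match nearest the start is shown for each gene with one, because members that moved together and members that did not can then be set side by side. Capitals mark the motif, and each run is read 5′ to 3′ on the strand of the gene.
Scg2, chr1:79440077-79440104: gctgagccggTGACGTCAgcgtggaatg
Chgb, chr2:132781560-132781587: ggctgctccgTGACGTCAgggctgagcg
Chga, chr12:102554887-102554911: ggcggtcctaTGACGtaatttcctg
Cck, chr9:121495727-121495751: tgctggactgCGTCAgcactgggta
Scg3, chr9:75684072-75684096: gctgggtcgcTGACGccatcctcac
Scg5, chr2:113829058-113829082: cggagggaggTGACGcaggagctat
The full element began at position -68 in Scg2 and -72 in Chgb, counted from the RefSeq start. In GENCODE M21 both of these windows, and that of Scg5, fall inside a longer first exon, and the other 3 overlap no feature of their gene.

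Opioid precursors and cholecystokinin were higher in the IP libraries of the KA group than in those of both control groups. Penk was at 2380, 1905 and 6297 FPKM in KA IP #1, #2 and #3, against 10.96, 9.15 and 5.25 FPKM in AAV control IP and 8.75, 6.16 and 3.96 FPKM in PBS IP. KA IP #3 held more than the other KA libraries, and the lowest KA value was far above every control value. The log2 fold change over AAV control was 8.84 (SE 0.730, n = 3 per group), and 8.005 without KA IP #3; over PBS it was 9.16 and 8.33. Within sequencing run 1 the mean Penk level was 213 times that of AAV control, and within run 2, with 1 library per group, 1198 times. Pdyn was far less abundant, at 14.2, 14.7 and 22.0 FPKM in KA IP and between 1.75 and 4.00 FPKM in the control IP libraries, a log2 difference of 2.67 (SE 0.320) from AAV control and 3.05 from PBS. Cck was at 1054, 354 and 288 FPKM in KA IP, against 64.4 to 80.1 FPKM in AAV control and 44.3 to 81.8 FPKM in PBS. Its order among the KA libraries differed from that of Penk and Pdyn, with sample #1 the highest. The log2 fold change of Cck over AAV control was 3.04 (SE 0.470), and 2.30 without KA IP #1.

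**Figure D1:**
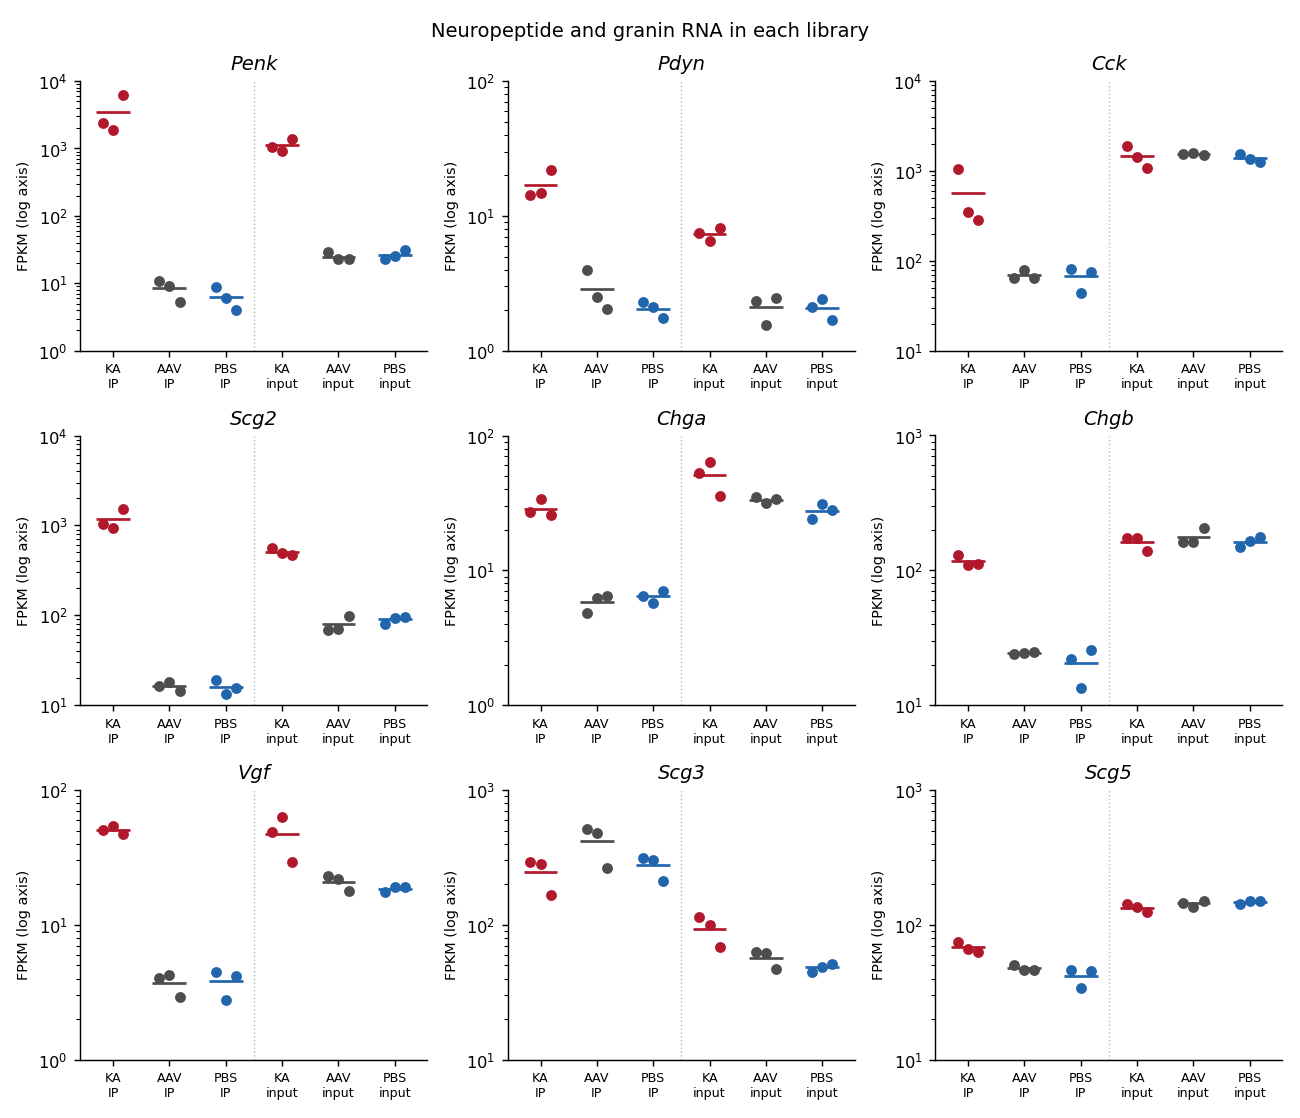
FPKM of the 9 genes in each library (log axis, scales differ between panels), with IP libraries left and input libraries right of the dotted line. Points are libraries #1 to #3 from left to right and bars are group means; Penk in KA IP, at 1905 to 6297, stands above all control IP libraries, while Scg3 in KA IP overlaps them.

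Among the vesicle-forming granins, Scg2 was the most changed in IP. It was at 1030, 944 and 1538 FPKM in KA IP, against 16.5, 18.1 and 14.4 FPKM in AAV control IP and 19.1, 13.5 and 15.4 FPKM in PBS IP, with no overlap. The log2 fold change of Scg2 was 6.25 (SE 0.358) over AAV control and 6.22 over PBS, and 5.92 and 5.90 without KA IP #3. Vgf was at 50.4, 54.3 and 47.2 FPKM in KA IP and between 2.77 and 4.49 FPKM in the control IP libraries (log2 fold change over AAV control 3.83, SE 0.176). Its 3 KA values were close together, unlike those of Penk. Chga was at 27.0, 33.7 and 25.6 FPKM against 4.81 to 7.09 FPKM in the controls, and Chgb at 131, 109 and 112 FPKM against 13.5 to 25.6 FPKM. The differences of Chga and Chgb from AAV control were 2.34 (SE 0.203) and 2.32 (SE 0.178) on the log2 scale.

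Scg3 and Scg5 did not share this pattern. Scg5 was at 75.0, 66.6 and 63.0 FPKM in KA IP, above all 6 control IP libraries (33.8 to 50.4 FPKM) but by less than 2-fold, with log2 fold changes of 0.57 over AAV control and 0.72 over PBS. Scg3 was at 294, 280 and 165 FPKM in KA IP, 514, 477 and 265 FPKM in AAV control IP and 314, 305 and 211 FPKM in PBS IP. Its KA range overlapped both control ranges, and in all 3 groups sample #3 was the lowest. The log2 fold change of Scg3 was -0.71 (SE 0.281) over AAV control and -0.20 over PBS.

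In all, 7 of the 9 genes were at least 2-fold higher in KA IP without overlap with AAV control IP, where 6.84% of 9729 genes were so. The same 7 were higher than PBS IP, where the share of 9847 genes was 7.84%; these shares are given for scale, since the choice of genes used this contrast. The comparisons share the KA libraries. The median log2 fold change of the 9 over AAV control was 2.67, beside -0.018 over all genes tested. By log2 fold change, Penk ranked 1, Scg2 3 and Vgf 16 of the 9729 genes above 1 FPKM in every compared library. That ranking leaves out genes near 0 in AAV control IP. With no such filter the neuropeptide genes Cartpt and Trh were at 13.3 and 11.1, above the 8.84 of Penk. Between PBS IP and AAV control IP none of the 9 differed by 2-fold without overlap, where 1.42% of 10667 genes did so in either direction, and their log2 differences lay between -0.52 and 0.16.

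Some markers of other cells were higher in KA IP beside these values, and others were lower. The 6 neuron markers summed to 233 to 294 FPKM in KA IP, 116 to 141 in AAV control IP and 107 to 188 in PBS IP, so the KA mean was 2.08 and 1.70 times the control means. Of these, 3 genes, Rbfox3, Snap25 and Nefl, were above every AAV control library, and Rbfox3 overlapped PBS. Syt1 and Tubb3 overlapped AAV control. Map2 went the other way, with a mean of 11.2 FPKM in KA IP, 12.5 in AAV control IP and 13.4 in PBS IP. Dentate granule cell markers summed to 20.6 to 43.9 FPKM in KA IP, 8.95 to 12.7 in AAV control IP and 8.66 to 17.1 in PBS IP. Prox1, the defining transcription factor of granule cells, was at 9.94 to 12.9 FPKM in KA IP and 2.53 to 5.62 FPKM in control IP, whereas Dsp, another granule cell marker, was at 0.335 to 0.822 FPKM in KA IP and 0.616 to 2.09 FPKM in control IP. Pyramidal cell markers summed to 1.96 times the AAV control mean, with Neurod6 lower and the other 3 higher, and GABAergic interneuron markers to 2.10 times, and 1.31 times the PBS mean. Of the 4 interneuron markers, Gad1 and Gad2 had higher KA means and Slc32a1 and Dlx1 lower ones. Slc32a1 was at 0.0642 to 0.326 FPKM in KA IP and 0.193 to 0.960 FPKM in control IP, and Dlx1, at 0.302 to 0.333 FPKM in KA IP, was below every AAV control (0.622 to 1.16) and PBS (1.10 to 1.73) library. Oligodendrocyte markers summed to 4.41 times the AAV control mean, with all 4 means higher. Microglia markers summed to 2.64 times, most of it C1qa (7.46 to 21.9 FPKM in KA IP against 2.82 to 4.35 in AAV control IP), while P2ry12, at 1.28 to 1.45 FPKM in KA IP, was below every AAV control (1.48 to 2.64) and PBS (1.79 to 2.72) library. Endothelial markers went the other way, at 0.482 of the AAV control mean and 0.498 of the PBS mean. Of the 4 genes 0 were higher than AAV control and 1 was higher than PBS, and 1 was below every AAV control library. In each IP group 3 of the 4 had means of at most 1 FPKM, so this sum rests mostly on Cldn5. Choroid plexus markers were at 0.859 of the AAV control mean and 3.63 times the PBS mean. Of the 6 astrocyte markers, Gfap and Aqp4 were higher in KA IP and the other 4 were lower than every AAV control library. The part of these cells in the IP values of the 9 genes was not tested. The ratio of group means, KA over AAV control, was 417 for Penk and 71.8 for Scg2 in IP. In input, where these RNAs also rose, it was 44.9 and 6.44. In pooled tissue, fewer cells of a type and less RNA per cell cannot be told apart.

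**Figure D2:**
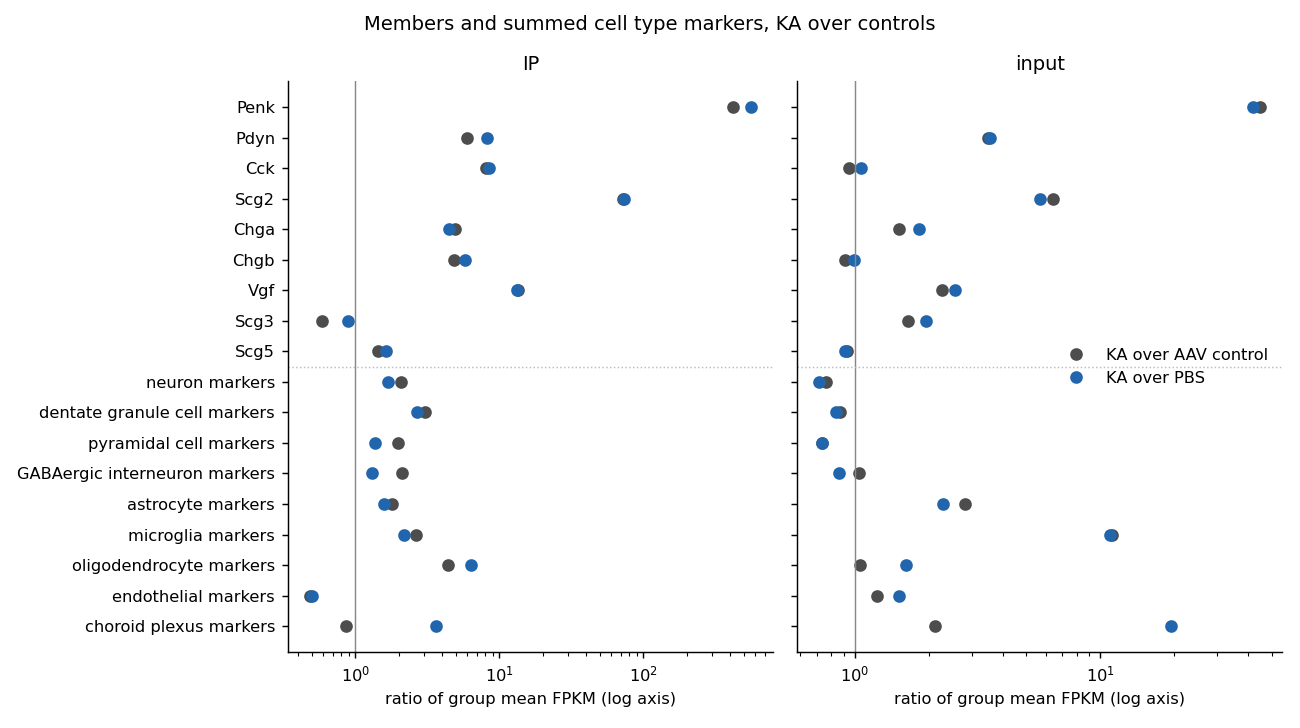
Ratio of group mean FPKM, KA over AAV control (grey) and over PBS (blue), in IP (left) and input (right, log axes with different ranges), for the 9 genes above the dotted line and for summed markers of 9 cell types below it. Neuron markers lie at 2.08 and 1.70 in IP and at 0.762 and 0.715 in input. Over AAV control, Penk lies at 417 in IP and 44.9 in input, and Scg2 at 71.8 and 6.44.

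The choice of the genes rested on IP values, so they were tested in the whole homogenate (edgeR quasi-likelihood test, Benjamini-Hochberg adjustment over all genes tested). A gene passed if its adjusted p was under 0.05 and it changed at least 2-fold. Input and IP libraries share homogenates, and the genes were chosen with earlier results of these data known. The input tests are therefore not independent of that choice. Penk, Scg2, Pdyn and Vgf rose in KA input over AAV control, and the same 4 rose over PBS. Thus 4 of 9 rose over AAV control, where 2.52% of 10809 genes did, and none fell, where 0.185% did; over PBS 4 of 9 rose, where 4.26% of 10849 genes did.

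Penk was at 1042, 913 and 1405 FPKM in KA input, against 29.0, 22.8 and 23.1 FPKM in AAV control input and 23.3, 25.7 and 31.2 FPKM in PBS input. Every KA library was above all 6 control libraries. The log2 fold change was 5.51 (SE 0.289, adjusted p = 0.00062 by edgeR) over AAV control and 5.40 (SE 0.232, adjusted p = 1.31e-07) over PBS. Over AAV control, Penk ranked 2 of the 10809 genes above 1 FPKM in every compared library. Scg2 was at 562, 500 and 474 FPKM in KA input, 69.5, 69.8 and 99.3 FPKM in AAV control input and 80.8, 93.5 and 97.0 FPKM in PBS input. Its log2 fold change was 2.67 (SE 0.237, adjusted p = 0.00113 by edgeR) over AAV control and 2.49 (SE 0.125, adjusted p = 2.88e-07) over PBS.

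Pdyn rose from 2.34, 1.56 and 2.45 FPKM in AAV control input to 7.41, 6.54 and 8.15 FPKM in KA input. Its log2 fold change was 1.79 (SE 0.240, adjusted p = 0.00607 by edgeR), and 1.82 (adjusted p = 0.000105) over PBS. Pdyn was thus changed in the same direction as Penk, at far lower levels. Vgf was at 49.1, 63.4 and 29.4 FPKM in KA input, 23.0, 21.9 and 17.8 FPKM in AAV control input and 17.4 to 19.1 FPKM in PBS input. The ranges did not overlap, with KA input #3 nearest the controls. The log2 fold change of Vgf was 1.17 (SE 0.229, adjusted p = 0.0302 by edgeR) over AAV control and 1.32 (adjusted p = 0.000837) over PBS. The first call rested on single libraries: without KA input #1, KA input #2, AAV control input #1 or AAV control input #2 the adjusted p was 0.145, 0.106, 0.108 and 0.0989, and without KA input #2 the log2 fold change was 0.93.

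The other granins and Cck did not pass the test in input. Scg3 was at 114, 99.1 and 68.8 FPKM in KA input, 62.6, 62.2 and 47.1 FPKM in AAV control input and 44.8 to 51.3 FPKM in PBS input, all KA libraries being above all controls. Its log2 fold change was 0.71 over AAV control (adjusted p = 0.0700 by edgeR) and 0.93 over PBS (adjusted p = 0.000865), under the required 2-fold. Chga was at 52.7, 63.7 and 35.8 FPKM in KA input and 23.9 to 34.9 FPKM in the control inputs, with log2 fold changes of 0.59 over AAV control (adjusted p = 0.136 by edgeR) and 0.85 over PBS (adjusted p = 0.00342). Without KA input #3, Scg3 and Chga passed against PBS, with log2 fold changes of 1.08 and 1.01. Cck, the most abundant of the 9 in both control inputs, was at 1878, 1430 and 1074 FPKM in KA input and 1248 to 1565 FPKM in the controls, and the ranges overlapped. Cck, Chgb and Scg5 had log2 fold changes of -0.09 (SE 0.223), -0.14 (SE 0.188) and -0.11 (SE 0.140) over AAV control. Within run 1 the KA to AAV control ratio was 1.06 for Cck and 1.07 for Chgb, and within run 2 it was 0.713 and 0.669, on opposite sides of 1.

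**Figure D3:**
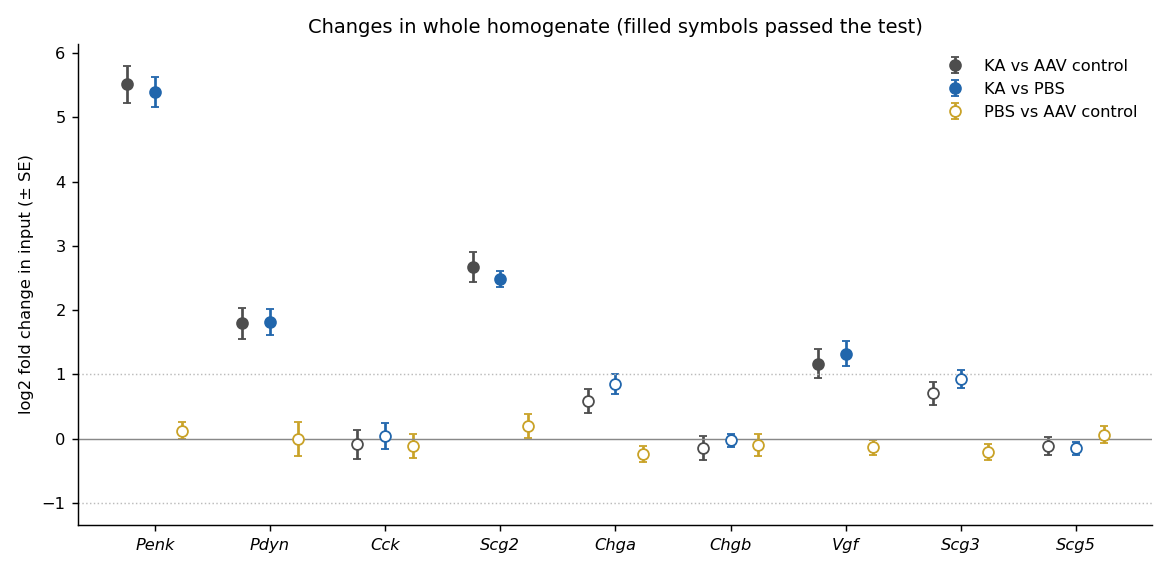
Log2 fold change of the 9 genes in the input libraries with its standard error for KA over AAV control (grey), KA over PBS (blue) and PBS over AAV control (yellow); filled symbols passed the test and dotted lines mark 2-fold. Penk, Pdyn, Scg2 and Vgf are filled in both KA comparisons, from 1.17 to 5.51, and no symbol of PBS over AAV control is filled.

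Between PBS input and AAV control input none of the 9 genes passed the test, and 0.0% of 10924 genes did. None of the 9 was under an unadjusted p of 0.05 by edgeR, and DESeq2 and limma voom called none of them; over all genes 901 were under that p by edgeR, DESeq2 called 14 and limma voom 0. The log2 differences of the 9 lay between -0.24 (Chga) and 0.20 (Scg2). This depended on AAV control input #3 for Scg2 and Scg3. Without that library Scg2 was at 0.452 (adjusted p = 0.00104 by edgeR) and Scg3 at -0.289 (adjusted p = 0.0124), both under 2-fold. The others of the 9 then stayed above an adjusted p of 0.05.

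Neuron and dentate granule cell marker sums moved otherwise in input, while astrocyte and microglia marker sums were higher in KA in both fractions. The 6 neuron markers summed to 618 to 658 FPKM in KA input and 800 to 926 FPKM in the control inputs. Of these, Nefl had a mean of 109 FPKM in KA input and 107 in both control inputs, and the others had lower KA means. Dentate granule cell markers summed to 40.3 to 45.8 FPKM in KA input and 45.9 to 57.6 FPKM in the control inputs. Of the 4 granule cell markers C1ql2 and Dsp had lower KA means, while Prox1 (mean 11.05 FPKM against 9.93 in AAV control and 9.11 in PBS) and C1ql3 (5.16 against 4.31 and 4.80) had higher ones, and both overlapped the controls. Astrocyte markers summed to 2.81 times and microglia markers to 11.2 times the AAV control mean. Most of the microglia sum was C1qa, at 498 to 955 FPKM in KA input and 43.3 to 70.3 in AAV control input, and all 5 microglia genes were above every AAV control library. Choroid plexus markers ranged from 16.03 to 4479 FPKM over the input libraries. The rises of Penk, Scg2, Pdyn and Vgf in input thus stood beside lower neuron marker sums, and the part of cell composition in them was not tested.

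The PBS group gives the placement of these RNAs between astrocyte ribosomes and the whole homogenate in tissue without KA. It is described and no test of it is reported, because genes picked for a rise in KA IP over controls may be low in control IP by that choice. In PBS, 7 of the 9 genes were at least 2-fold lower in IP than in input without overlap, where 12.3% of 10401 genes were, and 1 was higher, where 14.2% were; nothing is read from these counts. Cck had the lowest ratio, with 81.8, 44.3 and 75.2 FPKM in IP against 1535, 1366 and 1248 FPKM in input of the same homogenates. Its log2 difference was -4.26 (SE 0.302). Chgb (-2.89), Scg2 (-2.36), Vgf (-2.15), Chga (-1.98), Penk (-1.90) and Scg5 (-1.70) followed. Scg3 went the other way, at 314, 305 and 211 FPKM in IP against 44.8, 49.0 and 51.3 FPKM in input, a log2 difference of 2.69 (SE 0.268). Pdyn, with 2.29, 2.12 and 1.75 FPKM in IP and 2.10, 2.41 and 1.70 FPKM in input, overlapped between the fractions (log2 difference 0.14).

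Compared per homogenate, the ratio of IP to input FPKM described the shift in the KA group. For Penk it was 2.28, 2.09 and 4.48 in the KA pairs, 0.378, 0.402 and 0.227 in the AAV control pairs and 0.375, 0.240 and 0.127 in the PBS pairs. For Scg2 it was 1.83, 1.89 and 3.24 in KA, 0.237, 0.259 and 0.145 in AAV control and 0.237, 0.144 and 0.159 in PBS. Both genes were therefore on the IP side in every KA pair and on the input side in every control pair, as 0.978% of 9001 genes were that exceeded 1 FPKM in all libraries. Vgf came near the same pattern, with 1.03, 0.857 and 1.61 in KA and 0.145 to 0.258 in the controls. Cck stayed on the input side in all groups, at 0.562, 0.248 and 0.268 in KA and 0.0325 to 0.0602 in the controls. Chga, at 0.512 to 0.715, Chgb, at 0.627 to 0.809, and Scg5, at 0.491 to 0.524, were below 1 in KA as well and above all their control pairs. The ratio of Pdyn was 1.91, 2.25 and 2.70 in KA and 0.838 to 1.71 in the controls. Scg3 moved oppositely, from 8.22, 7.67 and 5.62 in AAV control and 6.997, 6.21 and 4.11 in PBS to 2.59, 2.83 and 2.40 in KA. It was thus the 1 gene of the 9 whose KA ratios lay below all control ratios. These shifts were not tested, since they hold the IP values on which the genes were selected.

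**Figure D4:**
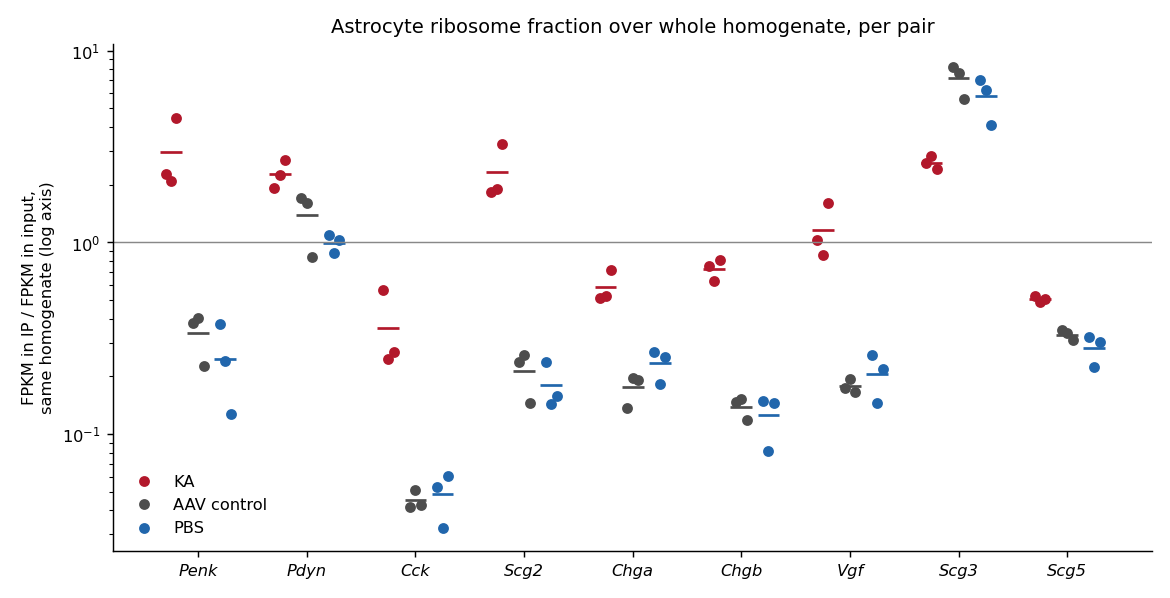
FPKM in IP over FPKM in input of the same homogenate for each of 3 pairs (log axis), in KA (red), AAV control (grey) and PBS (blue), with group means as bars and the line at equal levels. Penk and Scg2 lie above 1 in all KA pairs and below 1 in all control pairs, while Scg3 lies above 1 in all groups and is lowest in KA.

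The order of the genes by FPKM, a level per length, changed with KA. In AAV control IP, Scg3 was first (mean 419 FPKM), before Cck (69.7) and Scg5 (47.7), and Penk (8.45) was sixth, overlapping Chga. In KA IP, Penk came first (3527), before Scg2 (1171) and Cck (565), and the ranges of Scg2 and Cck overlapped, as did those of Cck and Scg3. In AAV control input, Cck led (1539) and Penk was seventh (24.9), overlapping Vgf. In KA input Cck (1460) and Penk (1120) overlapped at the head of the order. Together the 9 genes took 0.741% to 1.57% of all counts in KA IP, 0.0898% to 0.173% in the control IP libraries, 0.586% to 0.689% in KA input and 0.292% to 0.334% in the control inputs. By count within the library, Penk ranked 8 in KA IP #3 (112782 counts), 24 in KA IP #1 (43306) and 28 in KA IP #2 (32416).

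Across the 18 libraries, the pattern of each gene was compared with 15731 genes by Pearson's r of log2(FPKM + 1), as a description in which the points share libraries and depth. The 5 genes most like Penk were Cartpt (r = 0.989), Pthlh (0.981), Arxes1 (0.981), Asb11 (0.978) and Sowahb (0.977). Those most like Scg2 were Bdnf (0.994), Wnt10a (0.986), Nptx2 (0.980), Lgi2 (0.980) and Zfp804a (0.980). With log2(FPKM + 0.1), 2 of the 5 genes remained for Penk and 2 of 5 for Scg2, so these names depend on the offset for low values. Bdnf, which encodes brain-derived neurotrophic factor, was at 70.2, 62.0 and 87.2 FPKM in KA IP and 2.01 to 3.42 FPKM in control IP, and at 48.4 to 58.1 FPKM in KA input and 11.5 to 13.7 FPKM in control input. Among the 9 genes, Penk and Scg2 had an r of 0.971, and Cck, which did not follow Penk in input, had an r of 0.462 with Penk. Scg3 had an r of -0.08 with Penk and -0.27 with Scg2.

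Enzymes that cut and finish neuropeptide precursors mostly did not pass the test. Of 11 listed genes 8 could be tested in IP, where Pam rose and Cpe fell; over all genes 6.39% rose and 5.22% fell in that comparison. Pam, which amidates peptide ends, was at 8.35, 7.35 and 8.55 FPKM in KA IP and 2.47, 2.90 and 3.31 FPKM in AAV control IP (log2 fold change 1.53, SE 0.209, adjusted p = 0.00291 by edgeR), with 3.28 to 5.06 FPKM in PBS IP. Cpe, the carboxypeptidase that trims cut precursors, was at 2951, 3305 and 3489 FPKM in KA IP and 9029, 8500 and 9051 FPKM in AAV control IP, with 6958 to 11200 FPKM in PBS IP. Its log2 fold change was -1.39 (SE 0.286, adjusted p = 0.0143 by edgeR), and the adjusted p was between 0.0502 and 0.0832 without KA IP #1, KA IP #2, AAV control IP #1 or AAV control IP #2. In input 0 of 9 tested genes passed by edgeR, DESeq2 or limma voom, where by edgeR 2.52% of 10809 genes rose and 0.185% fell. An unadjusted p under 0.05 by edgeR was seen for 4 of the 9. The share over all genes is not given for that count, and nothing is read from it. Pam missed only the 2-fold limit in input, with a log2 fold change of 0.943 (adjusted p = 0.0399 by edgeR). In IP Pcsk7 and Cpd also missed only that limit, at -0.986 and 0.651 (adjusted p = 0.0239 and 0.0328 by edgeR). Pcsk2, a main convertase of these precursors, had log2 fold changes of 0.15 in IP and -0.51 in input (adjusted p = 0.778 and 0.189 by edgeR). The other main convertase, Pcsk1, was at 1.27 to 1.66 FPKM in KA IP and 0.481 to 0.784 FPKM in AAV control IP, too low to be tested there, with 0.77 in input (adjusted p = 0.0863). The list's median log2 fold change was 0.03 in IP and 0.08 in input.

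Of 10 genes for the making and release of dense-core vesicles, 7 were tested in IP and Ptprn rose, where 6.39% of 9729 genes did. Ptprn, a transmembrane protein of the vesicle, was at 49.5, 46.0 and 66.7 FPKM in KA IP and 6.24, 6.84 and 8.14 FPKM in AAV control IP (log2 fold change 3.00, SE 0.273, adjusted p = 0.000543 by edgeR). In PBS IP it was at 10.4, 13.7 and 17.9 FPKM, above AAV control and below KA. Resp18 had a log2 fold change of 1.20 without passing (adjusted p = 0.0695), and it passed with the sample number as a replicate block (1.17, adjusted p = 0.00259). Hid1 missed only the 2-fold limit, at 0.889 (adjusted p = 0.0277 by edgeR). In input 0 of 8 passed by edgeR, DESeq2 or limma voom, where by edgeR 2.52% of 10809 genes rose and 0.185% fell. An unadjusted p under 0.05 by edgeR was seen for 3 of the 8, a count given without its share over all genes and not read further. The medians of the list were 0.28 in IP and -0.25 in input.

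Other neuropeptide genes moved in both directions. Of 16 listed, 14 were tested in input, where Cartpt and Adcyap1 rose and Cort fell. Over all 10809 genes 2.52% rose and 0.185% fell. Cartpt, the precursor of cocaine- and amphetamine-regulated transcript peptides, was at 573, 532 and 1276 FPKM in KA input and 1.76, 2.95 and 4.61 FPKM in AAV control input (log2 fold change 7.97, SE 0.614, adjusted p = 0.00077 by edgeR). In IP it was at 783, 942 and 3078 FPKM in KA against 0, 0.0819 and 0.367 FPKM in AAV control, under the level required for the test. As for Penk, sample #3 was the highest KA sample in both fractions. Adcyap1, the precursor of PACAP, was at 6.09, 4.39 and 4.08 FPKM in KA input and 1.22 to 1.52 FPKM in AAV control input (log2 fold change 1.78, SE 0.209, adjusted p = 0.0035). Cort, which encodes cortistatin of interneurons, was at 9.59, 6.36 and 11.7 FPKM in KA input and 24.4 to 27.4 FPKM in AAV control input. Its log2 fold change was -1.45 (SE 0.256, adjusted p = 0.0193 by edgeR), with adjusted p between 0.0562 and 0.123 without KA input #1, KA input #2, AAV control input #1 or AAV control input #2.

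In IP 6 of the 16 were tested, and Npy rose while Sst and Nmb fell. Over all 9729 genes 6.39% rose and 5.22% fell in that comparison. Sst, somatostatin of interneurons, was at 16.8, 17.04 and 13.8 FPKM in KA IP and 141, 212 and 154 FPKM in AAV control IP (log2 fold change -3.36, SE 0.200, adjusted p = 0.000133 by edgeR), with 117 to 268 FPKM in PBS IP. Its direction was thus opposite to that of Penk in the same libraries. Npy, neuropeptide Y, was at 218, 568 and 3010 FPKM in KA IP and 43.3, 62.1 and 123 FPKM in AAV control IP (log2 fold change 4.17, SE 1.03, adjusted p = 0.0273 by edgeR). In PBS IP Npy was at 220, 101 and 72.2 FPKM, so KA IP #1 lay within the PBS range. The Npy call was lost without AAV control IP #1 (adjusted p = 0.0885) or AAV control IP #2 (adjusted p = 0.0930), and without KA IP #3 its log2 fold change was 2.32. In input Npy had a log2 fold change of 1.51 that did not pass (adjusted p = 0.154), and 1.45 with the replicate block, where it passed (adjusted p = 0.000497). Nmb, which encodes neuromedin B, had a log2 fold change of -1.14 (adjusted p = 0.0423 by edgeR). It lost the call without any 1 of KA IP #1, #2 and #3 or AAV control IP #2 and #3, with adjusted p from 0.0537 to 0.146.

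Low levels kept 10 of the 16 from the IP test. Trh, the precursor of thyrotropin-releasing hormone, was at 21.03, 80.5 and 81.6 FPKM in KA IP, with 0, 0 and 1 count in the AAV control IP libraries. Gal, galanin, was at 2.85, 12.9 and 21.7 FPKM in KA IP and at most 0.297 FPKM in AAV control IP. With no filter on low values all 16 were tested in IP. Cartpt, Trh, Gal, Adcyap1, Grp and Npy then rose, where 5.01% of 31675 genes did. Cort, Nts, Sst, Tac1, Tac2 and Nmb fell, where 3.9% did. Many of these calls rest on few counts in 1 group. Cartpt, Trh, Gal and Adcyap1 had at most 6, 1, 3 and 7 counts in AAV control IP. Cort, Nts, Tac1 and Tac2 had at most 10, 4, 11 and 9 counts in KA IP. Nothing is read from the numbers of calls without the filter. The medians of the list over the tested genes were 0.14 in IP and 0.20 in input.

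**Figure D5:**
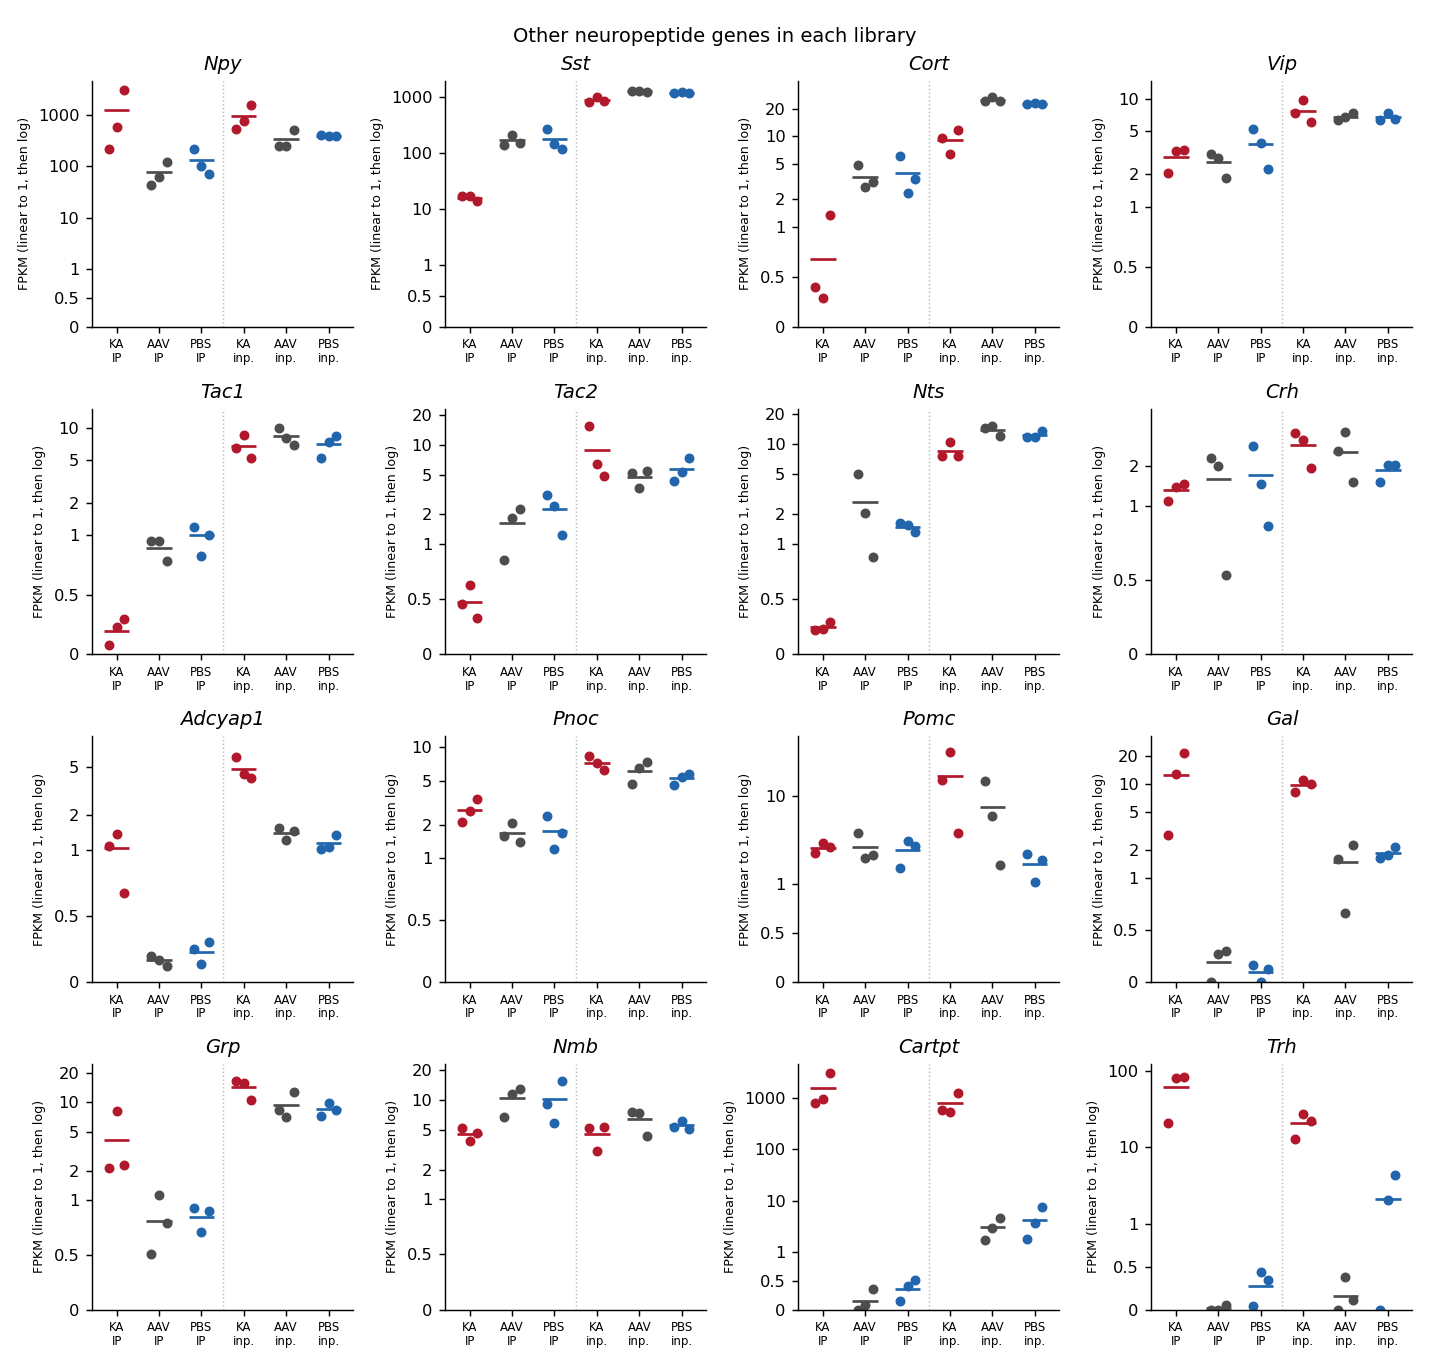
FPKM of the 16 other neuropeptide genes in each library, on an axis that is linear up to 1 and logarithmic above it (scales differ between panels), with IP left and input right of the dotted line. Points are libraries #1 to #3 from left to right and bars are group means; Cartpt, Trh and Gal are high in KA and near 0 in control IP, and Sst in KA IP, at 13.8 to 17.04, is below all control IP libraries.

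Receptors for these peptides were mostly below the level required for the test. Of 11 genes for opioid and cholecystokinin receptors and for enkephalin-degrading peptidases, 2 were tested in IP and 4 in input. In either, 0 passed by edgeR, DESeq2 or limma voom, with 0 under an unadjusted p of 0.05. By edgeR 6.39% of all genes tested rose and 5.22% fell in IP, and 2.52% rose and 0.185% fell in input. With so few genes tested, nothing is read from these counts. The mu, delta and kappa opioid receptor genes Oprm1, Oprd1 and Oprk1 were below 1 FPKM in all 18 libraries. The medians of the tested genes were -0.21 in IP and -0.15 in input, and Cckbr, the brain receptor of cholecystokinin, had a log2 fold change of -0.22 in input (adjusted p = 0.753 by edgeR).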

How the data were processed

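The authors aligned reads to mm10 with STAR, and the submitters' processing notes also name featureCounts and edgeR without a role. Deposited per library were a count file (whole numbers, not normalized) and an FPKM file, in which the authors' FPKM equals the count over the library total and a fixed gene length, except for 30 of 17097 genes checked, none of them described here. Strand use, annotation release and the treatment of reads mapping to several genes are not given in the sources used here. FPKM is relative to the library total, so a change in a few abundant RNAs moves all other values.

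Samples were grouped by their labels. The 9 genes and all gene lists were chosen with earlier results of these data known. Deposited counts were normalized by TMM and tested by the quasi-likelihood test of edgeR 4.0.16 (R 4.3.3), for genes with FPKM above 1 in all compared libraries. Benjamini-Hochberg adjustment covered all genes tested, and standard errors were the log2 fold change over the square root of F. For the 9 genes no test is reported in IP comparisons of KA with controls or in PBS IP against AAV control IP or input. The same edgeR fit was run there, and its log2 fold changes and standard errors are given as description. Among the alternatives, PBS IP against input was scored by its calls. Ratios that hold KA or AAV control IP were not tested. Named are all 9 genes, called genes of each list (up to 5 per direction), further list genes whose role is explained, genes overlapping one of the 9 and the 5 genes most like Penk and Scg2. Pcsk7, Cpd and Hid1 are named because their adjusted p in IP was under 0.05 without a 2-fold change. Trh, Gal and the other genes called without the filter were named after their values were seen. The planned test of PBS IP against input is not reported, since the PBS IP libraries are controls of the contrast on which the genes were chosen. The test was checked on simulated counts. Alternatives were size factors, no filter, each library left out, a replicate block, the sequencing run as covariate, DESeq2 1.42.0, limma voom 3.58.1 and, chosen after seeing the data, run 1 alone. Same-numbered KA and AAV control libraries deviated together (residual correlations 0.352, 0.444 and 0.550 in input, 0.348, 0.529 and 0.551 in IP), and their numbers coincide with the run. IP and input of 1 number come from 1 homogenate (0.326, 0.155 and 0.225 in PBS). Samples are pools of 3 to 4 mice, and p-values measure the spread between these pools. In KA and AAV control that spread also holds the sequencing run, which the main test did not model. Replicate libraries differed by more than counting noise, and none was a duplicate. The mean squared difference, where 1 is counting noise alone, was 5.02 between KA input #1 and #2. It was 53.4 and 47 between these and KA input #3, and 5.32, 98.6 and 130 in AAV control input in the same order. Within run 3 it was 66.4 to 97.6 in PBS IP and 8.33 to 23.4 in PBS input.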

Additional observations from a re-analysis of the deposited data

Results flagged for a closer look

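The IP to input ratio of Penk and Scg2 lay above 1 in all 3 KA pairs and below 1 in all 3 pairs of each control group. The mean log2 ratio of Penk was 3.09 higher in KA than in AAV control and 3.62 higher than in PBS. For Scg2 the differences were 3.43 and 3.67. These differences were not tested, since the genes were selected on IP values of KA. With TMM-normalized CPM in place of FPKM the same 2 genes showed the pattern. In KA IP the neuron marker sum was 2.08 times that of AAV control, and its part in these ratios was not tested.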

How the results depend on the processing

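Of 648 values of the 9 genes under the alternatives, 616 kept their direction and their side of the threshold (or, where not tested, moved by less than 1 SD), 2 gained and 4 lost a call, 14 reversed and 12 untested values moved. All 14 reversals were of uncalled genes near 0. In KA over AAV control input, the log2 fold change with run 1 alone was 0.0894 for Cck and 0.1002 for Chgb, and with 1 library left out it ranged from -0.277 to 0.0526 for Cck and from -0.240 to 0.0518 for Chgb. In KA over PBS input these ranges were -0.145 to 0.186 and -0.0528 to 0.0286. In PBS over AAV control input they were -0.268 to 0.00591 for Cck, -0.186 to 0.0880 for Chgb and -0.189 to 0.188 for Pdyn, which was at 0.0126 with no FPKM filter and 0.00513 with the replicate block. The cause of these reversals was not tested. The replicate block changed no call of the 9 genes: 4 rose in KA over AAV control input with and without it. The calls of the 9 over AAV control in input were 3 to 4 with a library left out, over PBS 4 to 6, and 2 to 3 genes then had the Penk and Scg2 pattern of IP to input ratios.

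List counts in KA over AAV control moved more. Processing enzymes: 2 higher in IP with no filter, 1 higher in input with run 1 alone, and with a library left out 0 to 2 lower in IP and 0 to 1 higher in input. Vesicle genes higher in IP were 2 with no filter, DESeq2, the run as covariate or the replicate block, 3 with run 1 alone and 1 to 3 with a library left out. Other neuropeptides in IP were 6 higher and 6 lower of 16 with no filter, beside 1588 and 1235 of 31675 genes, 1 lower with limma voom or run 1 alone, and 0 to 1 higher and 1 to 2 lower with a library left out. In input they were 6 higher with no filter or run 1 alone and 0 to 1 lower with a library left out. Receptors and peptidases had 1 lower in input with no filter, where more genes were tested. Over all genes, 20 fell in KA over AAV control input, and 37 with the replicate block, 42 by DESeq2, 52 with the run as covariate, 220 with run 1 alone, 185 with no filter and 2 to 124 with a library left out. Those that rose were 272, and 462 with run 1 alone, 984 with no filter and 131 to 464 with a library left out. In PBS over AAV control input 0 to 365 genes were called with a library left out. Protein products were not run, as no sequences were at hand. At these depths a level near 1 FPKM rests on few counts: Adcyap1 had 28 to 54 counts in KA IP.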
